A study of Homo sapiens with 16 samples.

Results

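The mitochondrial ribosomal proteins are described here across 16 RNA sequencing libraries of the human cell lines Hs578 and TT642. Members were the gene symbols that begin with MRPL or MRPS and go on with a number and, in a few cases, a letter from A to C. The count table held 76 such genes among 20114, and 75 of them passed the filter on low counts. By the structure of the mammalian mitochondrial ribosome, 49 of the 76 belong to its large subunit, 26 to its small subunit, and 1, MRPS36, is now known as a subunit of the oxoglutarate dehydrogenase complex. MRPS18A and MRPS30 sit in the large subunit despite their names.

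The mitochondrial ribosome translates the few messenger RNAs of the mitochondrial genome, which encode core subunits of the respiratory chain and of ATP synthase. Its RNAs come from mitochondrial DNA, whereas all of its proteins are made in the cytosol from nuclear genes and imported. Some members descend from bacterial ribosomal proteins, and others were added in mitochondria and have no bacterial counterpart. Doxycycline is a tetracycline antibiotic that binds bacterial ribosomes and is also known to slow mitochondrial translation, so cells that received it without a hairpin were read beside the others.

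Hs578 is labelled as breast cancer cells. The labels give the source of TT642 as rhabdoid tumour, while the design text counts the 2 lines among triple-negative breast cancers. Both were studied as unmodified parental cells and as 3 lines derived from them, numbered 1 to 3, in which doxycycline switches on a short hairpin RNA against PRRX1, a homeobox transcription factor gene of mesenchymal cells. Every one of these was grown without doxycycline and with 3 µg/ml, for a time that the labels do not state, which gave 4 pairs of libraries per line, 1 parental pair and 3 hairpin pairs. The labels do not say whether the hairpin lines are clones or whether replicates were grown as separate cultures. All p-values therefore cover the spread between these libraries, which may be technical.

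Total counts ran from 13461527 to 24672906 per library. Levels are given as TMM-scaled CPM, that is, counts scaled to a common library size that is adjusted for composition. PRRX1 was at 227 to 291 CPM in the Hs578 libraries without doxycycline and at 298 CPM in the parental library with it, against 37.1, 72.8 and 51.0 CPM in the induced hairpin lines. In TT642 it was at 1210 to 1480 CPM without doxycycline and at 1530 CPM in the parental library with it, against 265, 183 and 513 CPM in the induced lines. The epithelial markers EPCAM and CDH1 were at no more than 0.366 CPM in any library, and KRT18 stood at 185 to 401 CPM in Hs578 and at 0.113 to 1.54 CPM in TT642. Of the breast receptors, ESR1 was under 1 CPM in all libraries, PGR at no more than 3.5 CPM and ERBB2 at 69.9 to 173 CPM. The blood marker PTPRC was under 1 CPM in all libraries. Of the mesenchymal markers, FN1 was at 10200 to 17800 CPM in Hs578 and at 0.194 to 3.96 CPM in TT642. VIM was at 4080 to 11000 CPM over all libraries, and CDH2, ZEB1 and COL1A1 were at 13.7 CPM or above in each. SMARCB1, the gene whose loss defines most rhabdoid tumours, was at 28.8 to 41.6 CPM in TT642 and at 87.7 to 125 CPM in Hs578.

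Per length, the members spanned a wide range of levels. Levels by the FPKM that the authors deposited, scaled for transcript length and depth, are given by line because the order differed between the lines. Over the 8 Hs578 libraries the highest were MRPS28 (116 to 164 FPKM), MRPL33 (125 to 178 FPKM) and MRPL51 (91.9 to 141 FPKM), whose ranges overlap. Over the 8 TT642 libraries the highest medians were those of MRPL51 (129 to 157 FPKM), MRPL52 (98.1 to 127 FPKM) and MRPL33 (90.2 to 110 FPKM). MRPL51 stood above MRPL33 in every TT642 library, and MRPS28 was at 36.5 to 56.3 FPKM. The FPKM of MRPS28 goes with an implied length of 218 bases, where GENCODE v29 annotates 1122. That of MRPL52 goes with 337 bases, where 1308 are annotated. In Hs578, MRPL33 was above MRPL51 in every library, and MRPL3 was at 73.1 to 99.9 FPKM over both lines. Over all 16 libraries the lowest medians were those of MRPL50 at 11 FPKM, MRPS14 at 7.55 FPKM and MRPL30 at 2.72 FPKM. MRPL50 ran from 5.01 to 7.31 FPKM in Hs578, where it overlaps MRPS14 (5.91 to 8.23 FPKM). In TT642 the medians of MRPL38 (10.2 FPKM) and MRPS36 (15.7 FPKM) lay below that of MRPL50 (17.4 FPKM). For 2 members the deposited tables disagree. MRPL30 had counts of 0 to 1 per library and was not tested, while its FPKM ran from 0.299 to 7.19. MRPS24 had counts of 0 to 9 per library but 62.1 to 98.1 FPKM. URGCP, which can be read through into MRPS24, had counts of 401 to 1336. MRPS24 passed the filter and stays in the member counts below, but its fitted values rest on these few reads and are not described further.

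In Hs578, 36 of the 75 tested members rose when the hairpins were induced and 0 fell, by edgeR's quasi-likelihood test at an adjusted p under 0.05. Over all 14035 genes tested, 15.2% rose and 14.1% fell. The rises were small. Those of the 36 lay between 0.28 and 0.88 on the log2 scale, with a median of 0.43, and 9 reached 1.5 fold. Over all 75 members the median log2 fold change was 0.26 and the middle 50% of values lay between 0.06 and 0.42, against a median of 0.00 and a range of -0.28 to 0.28 for the middle 50% of all genes. Without regard to the test, 47 of the 75 members were higher in each of the 3 pairs of hairpin libraries, against 4104 of the 14035 genes (29.2%). In 38 members every induced library stood above every uninduced one and in 2 below, against 22.1% and 21.9% of all genes. At an unadjusted p under 0.05, 38 members were higher and 1, MRPL19, was lower. In either direction, 5723 of the 14035 genes were under it. DESeq2 called 33 members higher and 1 lower, against 13.5% and 16.3% of all genes. On log2(FPKM + 1), limma called 28 and 2, against 9.7% and 21.8% of all genes. In bulk RNA, a change in every cell cannot be told apart from a change in the share of cells.

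The count of 36 changed with the libraries used, and so did the share of all genes that rose. Leaving out hairpin 3 in both lines gave 4 members and 2.69% of all genes. Leaving out its induced Hs578 library alone gave 23 and 9.97%, and leaving out the uninduced Hs578 library of hairpin 1 gave 21 and 8.53%. The 4 that were called in each of the 17 alternatives run were MRPL14, MRPL17, MRPL27 and MRPL41.

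**Figure D1:**
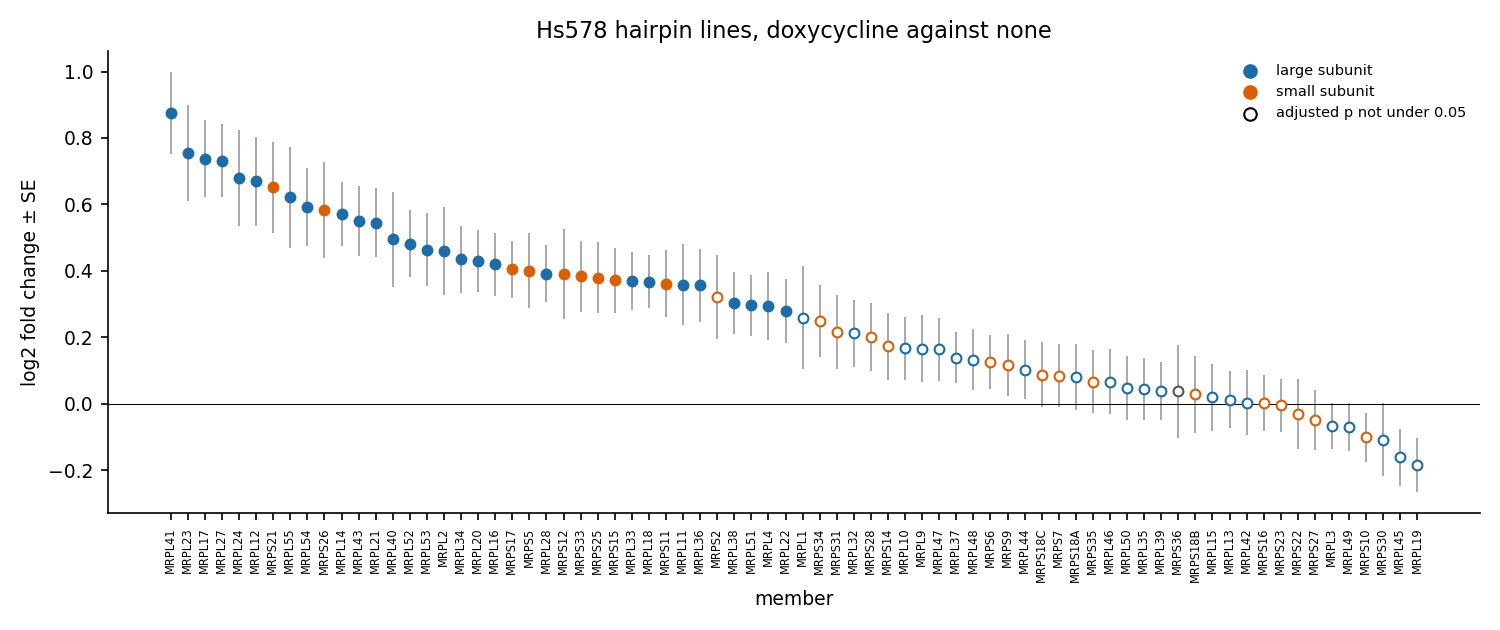
Log2 fold change (y axis, ± standard error from edgeR) of 74 members, MRPS24 left out, in the Hs578 hairpin lines with doxycycline against without, ordered by size along the x axis, in blue for the large subunit, orange for the small subunit and grey for MRPS36. Filled points are the 36 members that were called, between 0.28 and 0.88, and no point below 0 is filled.

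The member with the largest rise was MRPL41, a large subunit protein with no bacterial counterpart that is also known to bind BCL2. Its level was 20.3, 21.3 and 22.7 CPM in the uninduced Hs578 hairpin libraries 1, 2 and 3, and 33.4, 37.4 and 47.1 CPM in the induced ones. The parental Hs578 libraries were at 18.3 CPM without doxycycline and 21.8 CPM with it. All 3 induced libraries therefore lie above the other 5 of the line. The log2 fold change was 0.88 (SE 0.123, adjusted p = 0.00049, 3 against 3 libraries), which is 1.84 fold.

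MRPL27, the counterpart of a bacterial protein at the peptidyl transferase centre, was at 23.0, 24.9 and 26.5 CPM in the uninduced hairpin libraries and at 34.2, 45.3 and 44.2 CPM in the induced ones. In the parental pair it went the other way, from 24.2 CPM without doxycycline to 21.7 CPM with it. Its log2 fold change in the hairpin lines was 0.73 (SE 0.11, adjusted p = 0.00071).

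MRPL17, a large subunit protein near the exit of the peptide tunnel, was at 62.7, 63.7 and 67.8 CPM without and at 87.7, 109 and 127 CPM with induction. Here the parental Hs578 pair moved in the same direction, from 60.0 to 81.0 CPM. The log2 fold change in the hairpin lines was 0.74 (SE 0.117, adjusted p = 0.00089). MRPL14, which in bacteria lies at the face between the subunits, was at 33.9, 38.3 and 39.4 CPM without and at 49.7, 56.7 and 59.3 CPM with induction, and at 33.9 and 39.2 CPM in the parental pair. Its log2 fold change was 0.57 (SE 0.0955, adjusted p = 0.0012).

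MRPL23 and MRPL24 belong to the surroundings of the peptide tunnel exit. MRPL23 was at 35.1, 41.9 and 42.3 CPM in the uninduced hairpin lines and at 49.7, 68.9 and 82.4 CPM in the induced ones, a log2 fold change of 0.75. MRPL24 was at 34.9, 44.7 and 37.8 CPM without and at 49.2, 63.8 and 74.8 CPM with induction, a log2 fold change of 0.68. In both genes the induced and uninduced libraries do not overlap, and the induced library of hairpin 3 is the highest.

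The stalk of the large subunit, which recruits translation factors, is built on MRPL10 and MRPL11 and carries copies of MRPL12. MRPL12 was at 14.6, 17.1 and 15.8 CPM without and at 20.1, 25.5 and 30 CPM with induction in Hs578, with a log2 fold change of 0.67 (SE 0.134, adjusted p = 0.0029). MRPL11 rose by 0.36 (adjusted p = 0.039), a call that was lost in 10 of the 17 alternatives. MRPL10 was at 26.9 to 32.9 CPM without and at 30.5 to 36.7 CPM with induction, and its difference of 0.17 did not pass the test (adjusted p = 0.21). The stalk genes thus did not all pass.

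Promoters of 6 members are shown here because they carry the patterns described: the 4 called in each alternative (MRPL41, MRPL27, MRPL17, MRPL14), MRPS30, which differed most between the lines once MRPS24 is set aside, and MRPS6, which stood apart in the parental Hs578 pair. Each runs 5′ to 3′ on the gene's strand from 150 bases before to 30 bases after the start that RefSeq gives in GRCh38.p14. The deposited tables themselves rest on hg19. MRPL41 lies at chr9:137551729-137551908 on the plus strand, MRPL27 at chr17:50373155-50373334 on the minus strand, MRPL17 at chr11:6683311-6683490 on the minus strand, MRPL14 at chr6:44127279-44127458 on the minus strand, MRPS30 at chr5:44808797-44808976 on the plus strand and MRPS6 at chr21:34073428-34073607 on the plus strand. Capitals mark matches, on either strand, to 5 motifs: the NRF1 core CGCATGCG, the ETS core CCGGAAG that GABP binds, the YY1 core AAGATGGC, the E-box CACGTG and the GC box GGGCGG.
MRPL41: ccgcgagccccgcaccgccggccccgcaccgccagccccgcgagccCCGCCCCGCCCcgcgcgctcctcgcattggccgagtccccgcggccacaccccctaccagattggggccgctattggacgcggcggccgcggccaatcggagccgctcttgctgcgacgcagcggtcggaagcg
MRPL27: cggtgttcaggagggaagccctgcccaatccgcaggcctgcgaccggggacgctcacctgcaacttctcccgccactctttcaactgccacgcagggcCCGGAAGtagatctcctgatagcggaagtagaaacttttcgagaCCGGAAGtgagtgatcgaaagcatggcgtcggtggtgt
MRPL17: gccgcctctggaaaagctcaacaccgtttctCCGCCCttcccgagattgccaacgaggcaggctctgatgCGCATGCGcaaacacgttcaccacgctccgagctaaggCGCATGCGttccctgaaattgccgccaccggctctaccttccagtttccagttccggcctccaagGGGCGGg
MRPL14: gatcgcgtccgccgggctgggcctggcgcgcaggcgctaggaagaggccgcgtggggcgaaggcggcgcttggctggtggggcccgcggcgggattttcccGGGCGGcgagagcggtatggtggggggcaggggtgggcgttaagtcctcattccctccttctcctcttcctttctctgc
MRPS30: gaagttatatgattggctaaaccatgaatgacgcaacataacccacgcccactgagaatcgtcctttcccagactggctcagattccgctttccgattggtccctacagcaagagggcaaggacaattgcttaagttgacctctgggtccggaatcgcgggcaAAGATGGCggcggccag
MRPS6: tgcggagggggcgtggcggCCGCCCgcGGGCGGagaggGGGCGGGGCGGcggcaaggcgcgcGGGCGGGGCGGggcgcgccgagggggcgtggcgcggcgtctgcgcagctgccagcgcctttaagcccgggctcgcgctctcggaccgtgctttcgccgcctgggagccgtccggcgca

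The sequences differ in what they hold. MRPL27 has 2 matches to the ETS core, MRPL17 has 2 to the NRF1 core and 2 to the GC box, and MRPS30 has 1 to the YY1 core close to its start. MRPS6 has 6 matches to the GC box, some of which share a base, MRPL41 has 2 and MRPL14 has 1. RefSeq promoter windows of 300 bases, from 250 before to 50 after the start, were matched for 67 members and 27305 genes in all. The ETS core stood in 28 of the 67 members' windows (41.8%) and in 10.7% of all windows, and the YY1 core in 20 (29.9%) and in 3.03% of all. The GC box stood in 61.2% of the members' windows and 44.6% of all, the E-box in 8.96% and 7.43%, and the NRF1 core in 4.48% and 2.19%. Among the 33 windows of members that rose in Hs578, 16 held the ETS core and 7 the YY1 core, and among the 33 of tested members that were not called the counts were 11 and 13. A match is a run of letters and was not tested as a binding site.

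By subunit, 27 of 48 tested large subunit members rose in Hs578 (56.2%) and 9 of 26 small subunit members did (34.6%). The median log2 fold changes were 0.30 and 0.19. Of all genes 15.2% rose, and of the shortest quintile of all genes, described below, 38.1% did. Within the large subunit, 19 of 30 members with a bacterial counterpart rose (median 0.36) and 8 of 18 without one (median 0.14). In the small subunit the counts were 6 of 17 (median 0.17) and 3 of 9 (median 0.22). The small subunit member with the largest rise was MRPS21, at 39.8, 50.2 and 47.0 CPM without and 56.6, 71.7 and 86.6 CPM with induction, a log2 fold change of 0.65. MRPS12, which lies at the decoding centre, rose by 0.39 (adjusted p = 0.042), and that call was lost in 13 of the 17 alternatives. The differences between these classes were not tested.

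The paralogues MRPS18A, MRPS18B and MRPS18C descend from 1 bacterial protein. None of them changed in Hs578, with log2 differences of 0.08, 0.03 and 0.09 (adjusted p = 0.59, 0.89 and 0.53). MRPS18B ranged from 62.3 to 81.3 CPM without and from 63.8 to 82.6 CPM with induction, so the groups overlap. MRPS36, the oxoglutarate dehydrogenase subunit, was at 11.7, 15.1 and 14.3 CPM without and 14.1, 13.5 and 14.6 CPM with induction, a difference of 0.04 (adjusted p = 0.88).

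The response of Hs578 changed with gene length, and most members are short. Gene length was taken as the length implied by the deposited counts and FPKM, with a median of 1074 bases over 74 members and 2784 bases over all tested genes. Over all genes, the median log2 fold change in the Hs578 hairpin lines went from 0.31 in the shortest quintile through 0.11, -0.01 and -0.12 to -0.25 in the longest quintile. In the shortest quintile 38.1% of all genes rose. This quintile held 52 members, of which 31 rose (59.6%), with a median of 0.36. The second quintile held 18 members, of which 5 rose, with a median of 0.11 that equals that of all its genes. The third held 4, of which 0 rose. By annotated exon length in GENCODE v29, a check added after seeing the data, the shortest quintile held 57 members with a median of 0.30, the same as all its genes, and 49.1% of them rose against 35.8% of all.

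With a correction for this length trend in each library, 8 of 75 members rose and 6 fell in Hs578, where 9.43% of all genes rose and 9.36% fell, so the members' shares were near those of all genes. The median of the members was 0.00. Those that rose were MRPL41 (0.67), MRPS21 (0.43), MRPL17 (0.42), MRPL24 (0.36), MRPL23 and MRPL27 (0.35 each), MRPL14 and MRPS17 (0.28 each). Those that fell were MRPS18C (-0.33), MRPL19 (-0.32), MRPS23 (-0.30), MRPL45 (-0.29), MRPL13 (-0.26) and MRPL3 (-0.21). The correction takes the implied length, which was below 0.333 of the annotated length in 12 of 74 members. These include MRPS18C (442 against 1643 bases), MRPS23 (914 against 5747 bases) and MRPL27 (670 against 2807 bases), so their corrected values rest on which length is right. The part of the length trend in the rise of the members was not tested in any other way.

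**Figure D2:**
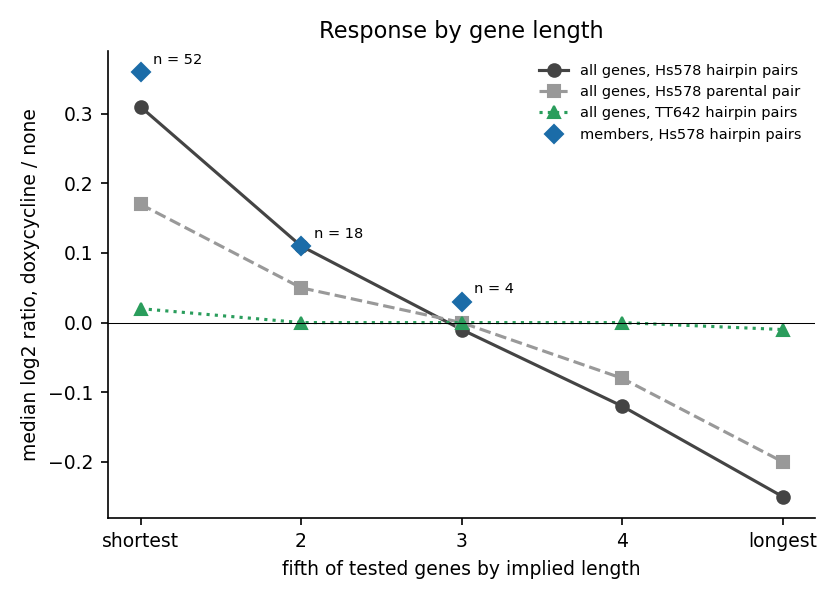
Median log2 ratio with doxycycline against without (y axis) in each quintile of tested genes by implied length (x axis, shortest to longest), for all genes in the Hs578 hairpin pairs, the parental Hs578 pair and the TT642 hairpin pairs, and as blue diamonds for the members in the Hs578 hairpin pairs with their number. All genes of Hs578 go from 0.31 to -0.25 in the hairpin pairs and from 0.17 to -0.20 in the parental pair, TT642 stays near 0, and the members are at 0.36, 0.11 and 0.03.

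The parental Hs578 pair, cells with doxycycline but no hairpin, is 1 library against 1 and allows no test within the line. Its length trend ran from 0.17 in the shortest quintile of all genes to -0.20 in the longest. Of the 75 members, 35 were higher with doxycycline there, against 6795 of the 14035 genes. The members' median log2 ratio was -0.03, or 0.02 for the 52 in the shortest quintile. Whether they departed from the length trend in this pair was not tested. In the hairpin pairs 1, 2 and 3 the corresponding medians over the 75 were 0.29, 0.16 and 0.32. There 69, 47 and 68 members were higher, against 6874, 6774 and 6933 of the 14035 genes. Of the 36 members called in the hairpin lines, 26 were higher in the parental pair, with a median of 0.13. The cytosolic ribosomal proteins, by contrast, had a median log2 ratio of 0.46 in the parental pair and of 0.36, 0.37 and 0.70 in the hairpin pairs, and the 13 protein-coding genes of the mitochondrial genome had 0.67 in the parental pair and 0.21, 0.92 and 1.46 in the hairpin pairs.

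**Figure D3:**
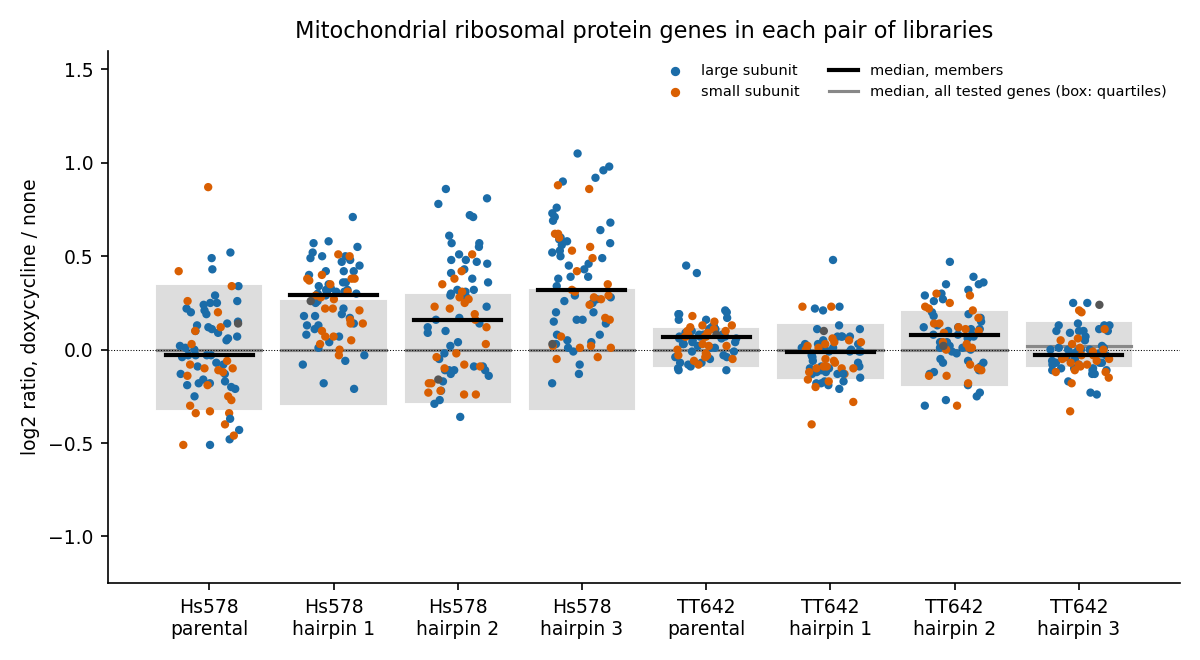
Log2 ratio of doxycycline to none (y axis) in each of the 8 pairs of libraries (x axis) for 74 members, MRPS24 left out, with the median over the 75 tested members as a black line and the median and quartiles of all tested genes as a grey line and box. The members' medians are 0.29, 0.16 and 0.32 in the Hs578 hairpin pairs and between -0.03 and 0.08 in the other 5 pairs.

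The mean doxycycline effect over the parental pairs of both lines, in a fit that assumes single libraries to vary like the hairpin groups, called 0 members in either direction. It called 0.0% of all genes as higher and 0.0143% as lower. The median of the members was 0.01. At an unadjusted p under 0.05, 2 members were higher and 0 lower, DESeq2 called 1 higher, and limma on FPKM called 0. The smallest p-values were those of MRPS6, MRPL55 and MRPL53.

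MRPS6, a small subunit protein with a bacterial counterpart, was at 90.4 CPM in the parental Hs578 library without doxycycline and at 165 CPM in the one with it. In the hairpin lines it was at 92.4, 89.4 and 95.5 CPM without and 95.7, 111 and 95.9 CPM with doxycycline. The parental library with doxycycline is thus the 1 Hs578 library that stands apart. Over both lines the parental effect was 0.45 (SE 0.102, adjusted p = 0.09). MRPS6 overlaps SLC5A3, a gene for an inositol transporter, which was at 404 and 448 CPM in the parental pair. In the Hs578 hairpin lines SLC5A3 was at 465, 253 and 314 CPM without and 242, 195 and 135 CPM with induction. Its log2 fold change there was -0.85 (adjusted p = 0.027 by edgeR). Whether SLC5A3 reads bear on the MRPS6 counts was not tested. How reads shared by both were counted is not stated. MRPL55 was at 8.55 and 12.3 CPM in the parental Hs578 pair and at 9.58 and 13.1 CPM in the parental TT642 pair, an effect of 0.49 that did not pass (adjusted p = 0.24). MRPL53 was at 24.7 and 30.3 CPM in Hs578 and at 14.3 and 16.5 CPM in TT642 (0.25, adjusted p = 0.40).

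The Hs578 hairpin effect minus the effect in the parental Hs578 pair was tested directly. It called 0 members in either direction, against 0.292% of all genes as higher and 0.114% as lower. Here 65 of 75 members were on the higher side, with a median of 0.26, 19 were higher at an unadjusted p under 0.05, and 1 was lower. DESeq2 called 1 in each direction and limma on FPKM called 0. The smallest p-values were those of MRPS6 (-0.75, adjusted p = 0.07), MRPS17 (0.71, adjusted p = 0.092) and MRPL27 (0.89, adjusted p = 0.095). For MRPL41 the difference was 0.62 (adjusted p = 0.27), for MRPL14 0.36 (adjusted p = 0.42) and for MRPL17 0.30 (adjusted p = 0.61). This test rests on 1 parental pair, and no single member passed it.

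In TT642, hairpin induction changed none of the 75 members by edgeR. Of all genes, 0.0143% rose and 0.0143% fell, which is 2 genes each way. The median of the members was 0.00 and all their log2 differences lay between -0.19 and 0.25. At an unadjusted p under 0.05, 2 were higher and 1 lower, where 1098 of the 14035 genes were under it in either direction. Neither DESeq2 nor limma called any member, and DESeq2 called 0.306% of all genes as higher and 0.257% as lower. The smallest p-values were those of MRPL48, at 11.5, 13 and 11.5 CPM without and 16.1, 13.2 and 13.6 CPM with induction (0.25, adjusted p = 0.53), of MRPL28 (0.21, adjusted p = 0.55) and of MRPL50 (-0.19, adjusted p = 0.61). Net of the parental TT642 pair, 0 members were called in either direction, where 0.0% of all genes rose and 0.0% fell. By that test 0 members were at an unadjusted p under 0.05, DESeq2 and limma called 0, and MRPL16 (-0.24), MRPL55 (-0.37) and MRPS34 (-0.25) had the smallest p-values, each with an adjusted p of 1.0.

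The difference of the hairpin effect between Hs578 and TT642 passed the test in 8 members, all higher in Hs578. Of all genes, 2.76% were called as higher and 2.48% as lower. The 8 were MRPL27 (0.78, adjusted p = 0.02), MRPL41 (0.76, adjusted p = 0.031), MRPL23 (0.75), MRPL17 (0.67, adjusted p = 0.04), MRPL14 (0.60, adjusted p = 0.033), MRPL52 (0.53, adjusted p = 0.044), MRPL16 (0.50, adjusted p = 0.045) and MRPS17 (0.46, adjusted p = 0.043). MRPL16 contacts transfer RNA at the A site in bacteria, MRPS17 is an early RNA-binding protein of the small subunit, and MRPL52 has no bacterial counterpart. In TT642, MRPL41 was at 34.9, 29.3 and 35.6 CPM without and 35.7, 37.4 and 34.7 CPM with induction, and MRPL27 at 28.7, 25.4 and 27.9 CPM without and 26.2, 27.2 and 25.8 CPM with it. In both genes the TT642 groups overlap, and all 8 TT642 libraries lie below the induced Hs578 levels of MRPL27.

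No member was lower in Hs578 by this test, also at an unadjusted p under 0.05 and by DESeq2 and limma. Of all genes, DESeq2 called 5.31% as lower and limma on log2(FPKM + 1) called 5.55%. The count of 8 was unstable, and the share of all genes called as higher moved with it. With the hairpin line as a replicate block the count was 20 (6.23% of all genes), by DESeq2 15 (4.85%), by limma on log2(FPKM + 1) 4 (2.34%), and with the length correction 0 (0.77%). Dropping hairpin 1, 2 or 3 from both lines gave 0 each time, where 0.535%, 0.079% and 0.0% of all genes were called. Dropping 1 library gave 26 without induced Hs578 hairpin 1 (8.26% of all genes) and 8 without uninduced TT642 hairpin 2 (2.5%). It gave 4 without uninduced Hs578 hairpin 2 (1.73%) and 3 without induced TT642 hairpin 2 (1.78%). The count was 1 without induced Hs578 hairpin 2 or 3, uninduced Hs578 hairpin 3, or induced TT642 hairpin 1 or 3. It was 0 without uninduced Hs578 hairpin 1 or uninduced TT642 hairpin 1 or 3. For the libraries that left 0 or 1 member, 0.15% to 0.871% of all genes were called.

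**Figure D4:**
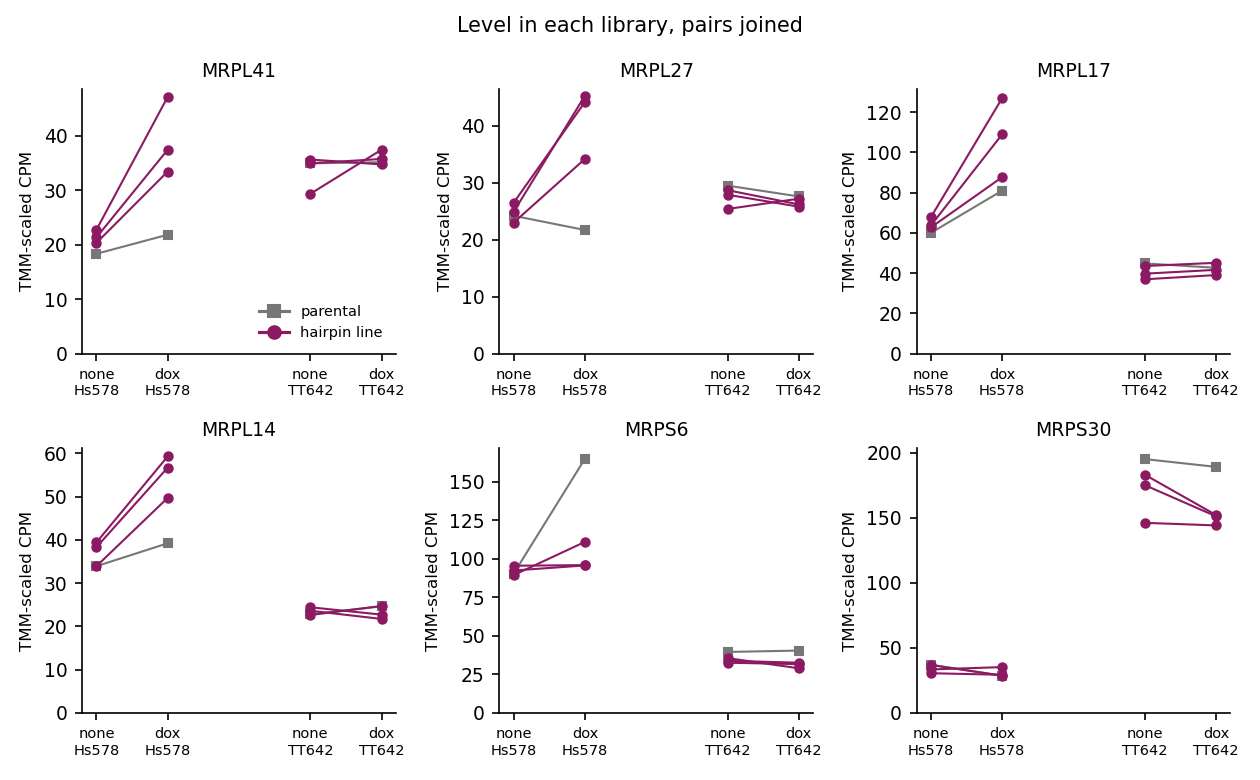
TMM-scaled CPM (y axis, from 0) of 6 members in every library, with the libraries without and with doxycycline of a pair joined, in grey squares for parental cells and purple circles for hairpin lines, at the left for Hs578 and at the right for TT642. MRPL41 goes from 20.3 to 22.7 up to 33.4 to 47.1 CPM in the Hs578 hairpin lines, MRPS6 reaches 165 CPM in 1 parental library, and MRPS30 is at 144 CPM or above in all TT642 libraries.

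Summed over all 76 members, the level in Hs578 hairpin lines 1, 2 and 3 was 3100, 3510 and 3360 CPM without and 3620, 3870 and 4220 CPM with induction, and 3180 and 3200 CPM in the parental pair. The lowest induced sum lies above the highest uninduced one. In TT642 the sums ran from 3530 to 4080 CPM with no such separation. In Hs578 the mitochondrial genome made up 2.16% to 2.79% of counts where no doxycycline was given, 4.16% in the parental library with it, and 3.18%, 4.27% and 5.44% in induced hairpin lines 1, 2 and 3. Their part in the result was not tested.

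The cell lines differed in many members before any doxycycline. Between the 4 uninduced libraries of each line, 22 members were higher in Hs578 and 30 were higher in TT642, while 42.4% of all genes were higher in Hs578 and 41.1% were lower. The median difference was -0.07, against 0.00 for all genes. The members spread less than genes in general: the standard deviation of their log2 differences was 0.84, against 3.18 over all tested genes. In 46 members (61.3%) the 4 libraries of one line did not overlap the 4 of the other, against 79.9% of all genes. Called differences of at least 2 fold numbered 6 toward Hs578 and 9 toward TT642, which is 8.0% and 12% of the members, against 26.3% and 21.9% of all genes. Without MRPS24 the counts toward Hs578 were 21 called and 5 at 2 fold. On log2(FPKM + 0.1), limma called 17 members higher and 42 lower, against 37.1% and 44.2% of all genes. The member median in that fit was -0.25, where all genes had -0.13.

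MRPS24 was among the members called as higher in Hs578, on its few reads. Of the other 74, MRPS30, of the large subunit, had the largest called difference. It was at 36.9 CPM in parental Hs578 cells and at 30.4, 36.7 and 33.3 CPM in the uninduced hairpin lines, 34.3 ± 3.09 CPM (SD, n = 4). In TT642 it was at 195 CPM in parental cells and at 175, 183 and 146 CPM in the hairpin lines, 175 ± 20.8 CPM (SD, n = 4). The log2 difference was -2.35 (SE 0.0946, adjusted p = 6e-12). MRPL44, whose fold resembles that of RNase III, was at 28.7 to 32.1 CPM in Hs578 and at 85.7 to 92.5 CPM in TT642 without doxycycline (-1.57). MRPS35 was at 35.7 to 40.0 CPM in Hs578 and at 97.3 to 134 CPM in TT642 (-1.50). MRPL50 (-1.39), MRPL46 (-1.35) and MRPS31 (-1.35) followed. All 6 lack a bacterial counterpart.

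On the other side stood MRPS28 and MRPL13. MRPS28 was at 31.0 to 37.7 CPM in Hs578 and at 8.36 to 10 CPM in TT642 (1.87, SE 0.0964, adjusted p = 9.9e-11). MRPL13, the counterpart of a bacterial large subunit protein, was at 95.3 to 109 CPM in Hs578 and at 26.4 to 31.0 CPM in TT642 (1.83, SE 0.0783, adjusted p = 1.1e-11). MRPL48 was at 37.5 to 42.3 CPM and at 11.5 to 14.6 CPM (1.69). MRPL34 (1.39), MRPS6 (1.38) and MRPL2 (1.0) were also higher in Hs578. MRPL2 sits at the peptidyl transferase centre.

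The counts by class stand against 42.4% of all genes higher in Hs578 and 41.1% higher in TT642. Of 30 large subunit members with a bacterial counterpart, 12 (40.0%) were higher in Hs578 and 5 (16.7%) in TT642, with a median of 0.03. Of 18 without one, 5 (27.8%) and 11 (61.1%) were, with a median of -0.44. In the small subunit, 4 of 17 with a counterpart (23.5%) were higher in Hs578 and 8 (47.1%) in TT642 (median -0.20). Of 9 without one the counts were 1 (11.1%) and 5 (55.6%), with a median of -0.57. These classes were not compared by a test.

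Genes next to a member on the chromosome were compared for the 2 lines, with gene order taken from RefSeq and up to 10 tested genes on each side. Around MRPL13, which lies between COL14A1 and MTBP, all 20 neighbours were higher in Hs578, with a median log2 difference of 2.90. Around MRPS28, between HEY1 and TPD52, 16 of 20 were higher and the median was 1.82. Values around other members at the ends of the range were lower. The neighbours of MRPS30 had a median of 0.84, the opposite sign, those of MRPS35 0.38, those of MRPL44 -0.61 and those of MRPL48 -0.13. Over the 75 members, 43 had the sign of their neighbours' median, with a Pearson correlation of 0.38 and a Spearman correlation of 0.249, given as a description because members share neighbours and libraries. A difference in gene copy number between the lines was not tested.

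**Figure D5:**
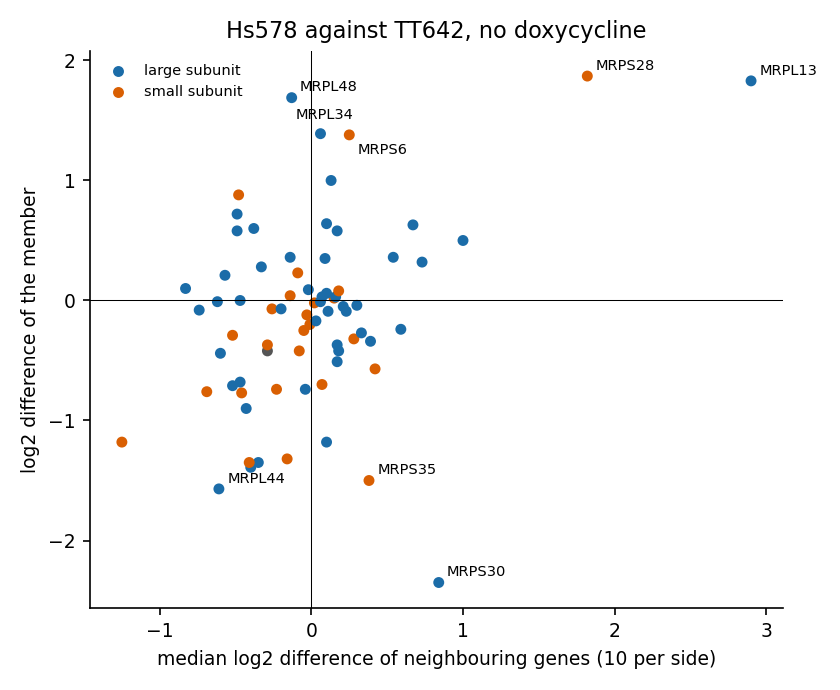
Log2 difference between Hs578 and TT642 without doxycycline for 74 members, MRPS24 left out (y axis), against the median difference of up to 20 neighbouring tested genes (x axis), in blue for the large subunit, orange for the small subunit and grey for MRPS36. MRPL13 and MRPS28 lie at the upper right with neighbours' medians of 2.90 and 1.82, and MRPS30 lies lowest at -2.35 with a neighbours' median of 0.84.

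MRPL46 and MRPS11 are direct neighbours in the genome, and they did not share these patterns. MRPL46 was lower in Hs578 (log2 difference -1.35, adjusted p = 5.6e-10), and its change on hairpin induction was 0.07 (adjusted p = 0.66). MRPS11 did not differ past the test between the lines (-0.07, adjusted p = 0.49) and rose in the Hs578 hairpin lines by 0.36 (adjusted p = 0.015). MRPS11 was at 18, 19.4 and 19.2 CPM without and 23.5, 25.4 and 23.9 CPM with induction. The parental pair went from 19.7 to 14.8 CPM.

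Hairpin lines were also compared with parental cells over both doxycycline states, 6 libraries against 2. In Hs578, 8 members were higher and 1 was lower in the hairpin lines, where 2.14% and 1.75% of all genes were. The median was 0.21, and 68 of 75 were on the higher side. The largest were MRPL41 (0.54), MRPL27 (0.48), MRPL21 (0.44), MRPL52 (0.43), MRPL20 (0.42) and MRPL16 (0.37). The lower one was MRPS6 (-0.34), whose single high parental library is given above. This mean takes in the libraries with doxycycline, so it also holds part of the induction effect given above. Without doxycycline, MRPL27 was at 24.2 CPM in parental cells and at 23.0, 24.9 and 26.5 CPM in hairpin lines. MRPL52 was at 18.9 CPM in parental cells and at 18.3, 20.7 and 21.2 CPM in hairpin lines. In MRPL41, MRPL21, MRPL20 and MRPL16 every uninduced hairpin library stood above the uninduced parental one. The count of 8 was 0 when the fit was limited to Hs578 libraries (0.77% of all genes higher) or corrected for length (1.41%). It was also 0 without hairpin 2 (0.56%) or hairpin 3 (0.0358%) in both lines, or without the uninduced library of either (0.507% and 0.371%). It was 2 without the induced library of either (1.54% each) and 15 without induced hairpin 1 (3.87%).

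In TT642 the direction was opposite: 0 members were higher and 7 were lower in the hairpin lines, where 4.18% of all genes were higher and 4.83% lower. At an unadjusted p under 0.05 there were 16 members in either direction, against 3513 of the 14035 genes. DESeq2 called 0 members as higher and 9 as lower, against 5.29% and 5.58% of all genes. Of the 75, 63 were on the lower side, with a median of -0.10. MRPS10 was at 106 and 113 CPM in the parental TT642 libraries and at 81.0 to 87.9 CPM in the 6 hairpin libraries (-0.38, SE 0.0716, adjusted p = 0.0055). MRPS35 was at 134 and 130 CPM in parental cells and at 97.3 to 112 CPM in the hairpin lines (-0.40, adjusted p = 0.013). The others were MRPL42 (-0.37), MRPL47 (-0.37), MRPL50 (-0.33), MRPS17 (-0.32) and MRPS6 (-0.30), and in all 7 the parental libraries lay above every hairpin library. The count fell to 0 when hairpin 3 was left out (2.49% of all genes lower), to 3 when hairpin 1 was (2.90%), to 4 when only the uninduced library of hairpin 1 was (3.63%), and to 2 by limma on log2(FPKM + 1) (2.66%).

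Other genes of mitochondrial translation were read beside the members in Hs578. Of the mitochondrial ribosomal proteins whose symbols fall outside the rule, 4 of 7 rose and 0 fell with hairpin induction: MRP63 (0.73), GADD45GIP1 (0.64), AURKAIP1 (0.58) and CHCHD1 (0.46). MRP63 was at 12.4, 14.9 and 17.3 CPM without and 23.8, 24.1 and 26.2 CPM with induction. DAP3, the GTP-binding protein of the small subunit, was at 80.8, 90.4 and 82.3 CPM without and 89.5, 89.7 and 97.0 CPM with induction. The structural proteins outside the rule thus had a median of 0.46, on the side of the members.

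The proteins that work on the ribosome were mixed. Of 14 translation factors, 2 rose (C12orf65 and MTIF3) and 3 fell (GUF1, MRRF and GFM1), with a median of -0.18. Of 20 aminoacyl-tRNA synthetase genes, 3 rose and 3 fell, among them IARS2 (-0.36) and CARS2 (0.29). Of 22 assembly factors, 4 rose, led by MRM1 (0.56) and RBFA (0.48), and 1 fell, GTPBP10 (-0.42). Of 7 genes for transcription of the mitochondrial genome, SLIRP rose (0.47) and TFAM, which packages mitochondrial DNA, fell (-0.40). Of 10 chaperones and proteases, 3 rose, such as HSPE1 (0.62), and 3 fell, such as HSPA9 (-0.35). Of 9 biogenesis regulators, 0 rose and PPARGC1B fell (-0.57).

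Of the transcripts that these ribosomes translate, the 13 protein-coding genes of the mitochondrial genome, 12 rose and 0 fell in Hs578. Their median was 0.85, with MT-CO2 at 1.13. In hairpin pair 1 only 9 of the 13 were higher, while all 13 were in pairs 2 and 3. Of 78 cytosolic ribosomal protein genes, 65 rose and 0 fell (median 0.48). Net of the single parental Hs578 pair, the medians were 0.23 for the mitochondrial genome and 0.03 for the cytosolic ribosomal proteins. In TT642, 0 genes of any of these lists were called, and the medians were 0.29 for the mitochondrial genome and 0.11 for the cytosolic ribosomal proteins. These counts stand against 15.2% rising and 14.1% falling over all genes in Hs578.

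Between the lines, these lists stood mostly higher in TT642. The counts that follow stand against 42.4% of all genes called as higher in Hs578 and 41.1% as higher in TT642. They were not compared with these shares by a test. Of the translation factors 11 were higher in TT642 and 2 in Hs578, with GFM2 at -2.13 and LRPPRC at -1.65. Of the synthetase genes the counts were 11 and 4, with MARS2 at -1.95. For the chaperones and proteases they were 9 and 1, with LONP1 at -2.03. For the assembly factors they were 13 and 3, with MTG1 at -2.06. MTG1 rests on few reads, at 0.116 to 0.427 CPM in uninduced Hs578 and 0.834 to 1.22 CPM in uninduced TT642. Of the genes for mitochondrial transcription 4 were higher in TT642 and 0 in Hs578, with SUPV3L1 at -1.77. Of the regulators 7 were higher in TT642, among them MYC (-1.83), and 1 in Hs578, PPARGC1A, at 2.07 to 5.11 CPM in uninduced Hs578 and at 0 counts in all TT642 libraries. Of the cytosolic ribosomal proteins 55 were higher in TT642 and 9 in Hs578, with a median of -0.58. The mitochondrial genome was the exception, with 7 higher in Hs578 and 4 in TT642.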

How the data were processed

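RNA was measured by sequencing of polyadenylated RNA (stranded TruSeq kit, per the labels' protocols). The authors deposited raw read counts per gene symbol and FPKM values. Per the submitters' processing notes the genome was hg19. No source used here names the aligner, counter, annotation or use of strand. Reads of overlapping genes could therefore have been split or dropped.

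Counts were fitted with edgeR 4.0.16 in R 4.3.3 (quasi-likelihood test, TMM scaling, expression filter on the 8 groups, robust moderation, 1 mean per group, 8 residual degrees of freedom). This left 14035 genes. P-values were two-sided, Benjamini-Hochberg adjusted over these genes, and called under 0.05. The script was tested on simulated data. DESeq2 1.42.0, limma 3.58.1 on log2(FPKM + 1) and log2(FPKM + 0.1), other scaling, no filter, a length correction (lowess offset per library), a replicate block, and leaving out hairpins or libraries were alternatives. Per-pair ratios used a prior count of 2, scaled to library size. No 2 libraries agreed within sampling noise (lowest chi-square per degree of freedom 5.43).

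Hairpin numbers in the titles were taken to mark the same derived line. As a check, the departures of 2 libraries with the same number from their groups' means had correlations of 0.128, -0.0277 and 0.00119 (Hs578) and of 0.440, 0.415 and 0.421 (TT642). Between libraries of different numbers they ran from -0.114 to 0.109 in Hs578 and from -0.303 to -0.0937 in TT642. In Hs578 the values for same and different numbers thus overlap, and its pairs rest on the titles alone.

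Named members were up to 6 called per direction with the largest changes and a mean log2 CPM of at least 2, or the 3 smallest p-values where fewer than 3 were called, plus the stalk proteins, the MRPS18 paralogues, MRPS12, MRPS30 and MRPS36, and the extremes by level. MRPS21, MRPL19, MRPS11, SLC5A3, MRPL14 in Hs578, MRPS28, MRPL52 and MRPL38 by level and the members listed under the length correction were named after their values were seen. Members and lists were chosen with earlier results of these data known. Promoters are RefSeq sequences (GRCh38.p14).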

Additional observations from a re-analysis of the deposited data

Results flagged for a closer look

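Summed over all members, the 4 TT642 libraries without doxycycline held 3960 CPM in parental cells and 3660, 3700 and 3670 CPM in hairpin lines 1, 2 and 3. The parental library lies far from the other 3 by Dixon's criterion, which flags about 1 in 20 groups by chance. The parental TT642 library with doxycycline was at 4080 CPM.

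The effect of hairpin induction differed between the cell lines, by a test of the difference itself, in 8 members, with the log2 effect higher in Hs578 by 0.78 in MRPL27, 0.76 in MRPL41, 0.75 in MRPL23, 0.67 in MRPL17, 0.60 in MRPL14, 0.53 in MRPL52, 0.50 in MRPL16 and 0.46 in MRPS17. In MRPL27 and MRPL14 the induced Hs578 libraries do not overlap the uninduced ones, while the TT642 groups do.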

How the results depend on the processing

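The number of members that rose in Hs578 was 36 and stayed between 26 and 37 under other scaling, no filter, DESeq2, limma, a fit of the line alone and 6 of the 9 settings that left out a hairpin or library. It was 8 with the length correction (9.43% of all genes), which also called 6 as lower (9.36%). Over the leave-one-out settings it was 4 to 37 (2.69% to 17.7% of all genes). DESeq2 called 1 member as lower (16.3% of all genes) and limma 2 with either pseudocount (21.8% and 20.7%). MRPS18C turned to -0.33 (adjusted p = 0.045) with the length correction. With the replicate block the count of members that rose stayed at 36 (17.1% of all genes). The 8 members whose effect differed between the lines (2.76% of all genes) became 20 with it (6.23%). That count was 5 with no filter (1.91%) and 15 by DESeq2 (4.85%). It was 4 and 3 by limma on log2(FPKM + 1) and log2(FPKM + 0.1) (2.34% and 1.76%). With the length correction it was 0 (0.77%), and on leaving out libraries 0 to 26 (0.0% to 8.26%). The parental comparison gained 1 higher member by DESeq2. Net of the parental Hs578 pair, DESeq2 called 1 in each direction, the length correction 1 lower, and the leave-one-out settings 0 to 1 in each. For hairpin lines against parental cells in Hs578, the 8 higher (2.14% of all genes) were 5 with no filter (1.42%). They were 1 by limma on log2(FPKM + 0.1) (0.463%) and 0 within the line (0.77%) or with the length correction (1.41%). On leaving out libraries they were 0 to 15 (0.0358% to 3.87%). The 1 lower was 0 within the line (1.08% of all genes) and by both limma fits (1.11% and 0.378%), and 0 to 1 on leaving out libraries. In TT642 the 7 lower (4.83% of all genes) were 2 by both limma fits (2.66% and 2.24%). On leaving out libraries they were 0 to 7 (2.49% to 5.65%). Among the comparisons of doxycycline with none, where the replicate block was run, it changed no other count of members by over 1.5 times. The single parental libraries and the 8 residual degrees of freedom limit what these tests can call. Causes of these shifts were not tested.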
